A study of Mus musculus with 2 samples.

Results

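The genes described here encode the translation initiation factors of the mouse, the eIF proteins. They were chosen by gene symbol (Eif followed by a digit), with pseudogenes and the Y-linked copy Eif2s3y left out, and 52 of the 15615 annotated genes with reads met this rule. All reads came from gastrocnemius, a calf muscle, of male B6CASTF1/J mice aged 10 days. B6CASTF1/J is a first-generation hybrid of a laboratory strain and a wild-derived strain, and reads were not split by parental allele. Total RNA, 2 micrograms per sample, was read as long cDNA reads in 2 libraries that the labels number as biological replicates 1 and 2. The labels give them separate biosample records but the same donor record, so whether they came from separate animals is not shown, and n = 2 counts libraries. They form 1 group, with no treatment and no control group, so a difference between them is a difference between libraries and not between conditions.

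Initiation factors bring the ribosome to the start codon of an mRNA. The eIF4 proteins bind the cap and unwind the leader, eIF2 delivers the initiator tRNA, eIF3, eIF1 and eIF1A hold the small subunit in a scanning state, and eIF5 and eIF5B complete start-codon selection and subunit joining. In muscle, growth signals act on this machinery through the eIF4E-binding proteins, and stress signals act through kinases that phosphorylate eIF2.

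Replicate 1 held 1145490 mouse reads and replicate 2 held 941841, of which 7509 and 6215 were reads of initiation factor genes. Levels are in counts per 1000000 mouse reads (CPM), with means ± SD taken over both libraries (n = 2). A read stands for 1 cDNA molecule whatever its length, so CPM was not divided by transcript length. Lengths of the main transcripts are given for most of the genes whose levels are compared. These are the lengths listed for the models, also where the libraries are compared by length below. How far single reads reached along them was not measured. With a floor of 3 reads, a gene without a read could still lie at up to 2.62 CPM (replicate 1) or 3.19 CPM (replicate 2). The 7 muscle fibre markers were all present and summed to 268819 and 263154 CPM, which fits the labelled tissue. The sums of 5 fibroblast markers (19650 and 11850 CPM), 4 Schwann cell markers (1691 and 1290 CPM) and 5 erythroid markers (409 and 853 CPM) differed more between the libraries. So did those of 4 endothelial (183 and 127 CPM), 4 immune (69.8 and 61.6 CPM) and 3 adipocyte markers (14.0 and 25.5 CPM). The part of these cells in the differences given below was not tested, and in bulk RNA fewer cells of a type and less RNA per cell cannot be told apart.

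The summed level of the 52 genes was 6555 CPM in the first library and 6599 CPM in the second. Together they made up 0.66% of mouse reads in each library. Their median level was 76.3 CPM, and that of the 47 with at least 20 reads in all was 84.7 CPM, beside 31.1 CPM over all 7654 genes with that many reads. Of the 52, 47 reached a mean of 10 CPM, 18 reached 100 CPM and 5 stayed under 10 CPM. The 5 genes with the most reads held 40.2% of the reads of the whole set. The annotation holds 54 protein-coding genes of this name pattern, and Eif4e1b and Eif4ebp3 had 0 reads in both libraries. Of the genes read, 9 overlap a gene on the opposite strand, among them Eif2a (Serp1) and Eif4enif1 (Drg1), and exchange of reads with those partners was not tested. Eif5a, Eif4g2 and Eif1 had the highest levels, as the plot of levels by library shows.

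**Figure D1:**
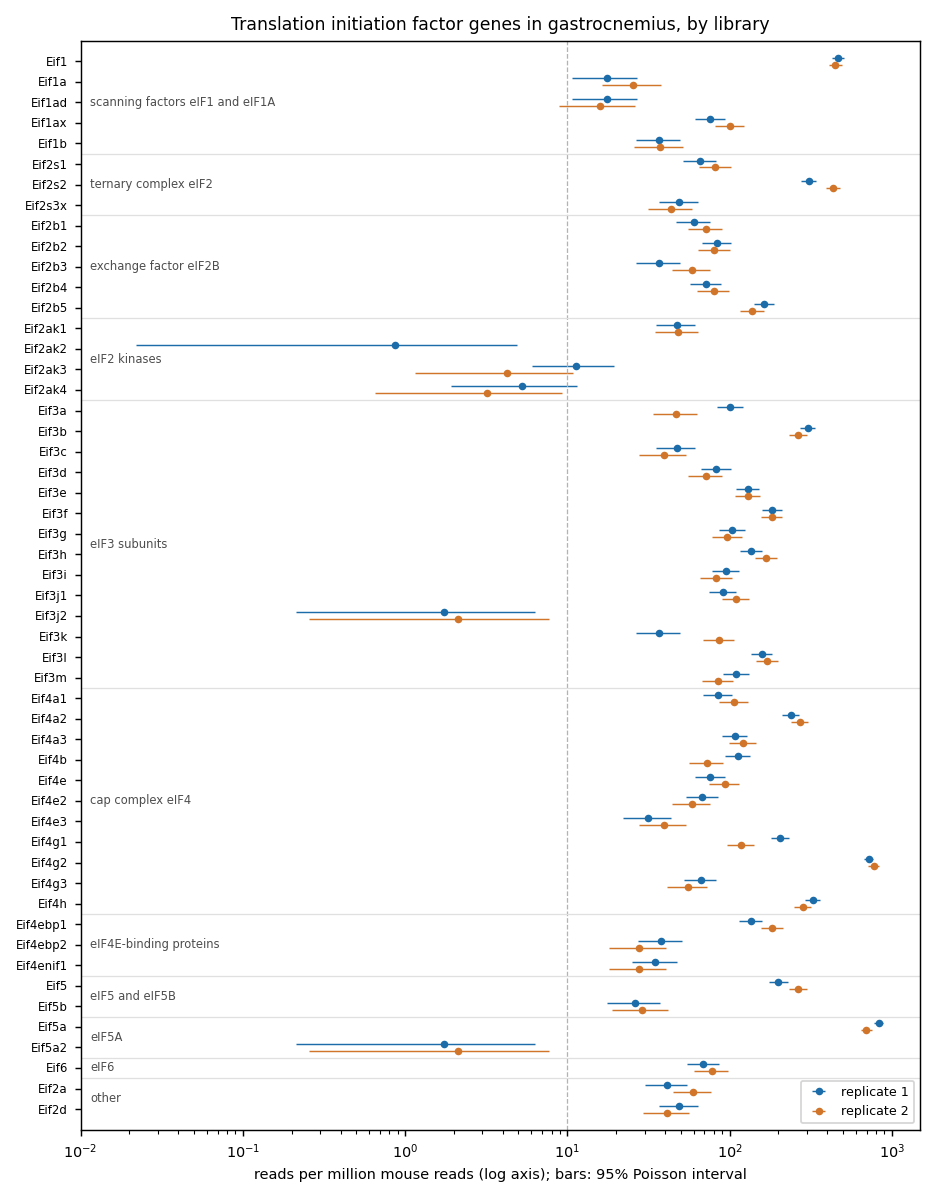
Level of each of the 52 initiation factor genes in CPM (log axis), grouped by role, with replicate 1 in blue and replicate 2 in orange and 95% Poisson intervals as bars. Most genes lie between 10 and 300 CPM with overlapping intervals, and the dashed line marks 10 CPM. Eif2ak2 had no read in replicate 2 and has no orange point.

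Eif1, which guards start-codon selection on the small subunit, had 466 CPM in replicate 1 and 449 CPM in replicate 2. Its paralogue Eif1b had 36.7 and 37.2 CPM. Eif1 was therefore 12.7-fold and 12.1-fold above Eif1b, and its share of the reads of the pair was 92.7% (95% Clopper-Pearson interval 90.3 to 94.7) and 92.4% (89.5 to 94.6). Their coding sequences have the same length of 339 nt and are 81.1% identical, and their main transcripts have 1322 and 1035 nt. For eIF1A, which works beside eIF1 in scanning, the X-linked gene Eif1ax had 76.0 and 101 CPM and its autosomal copy Eif1a had 17.5 and 25.5 CPM. Eif1ax held 81.3% (72.6 to 88.2) and 79.8% (71.5 to 86.6) of the reads of that pair, with main transcripts of 5172 and 2865 nt. The dominant copy of each pair was the same in both libraries.

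The 3 subunits of eIF2, the GTPase that carries the initiator tRNA, had unequal levels. Eif2s2, the beta subunit, had 353 reads (308 CPM) in replicate 1 and 408 reads (433 CPM) in replicate 2. Eif2s1, the alpha subunit that the stress kinases phosphorylate, had 65.5 and 81.8 CPM. Eif2s3x, the X-linked gene of the gamma subunit, had 48.9 and 43.5 CPM. Reads of Eif2s2 were 4.71 and 5.30 times those of Eif2s1, and 6.30 and 9.95 times those of Eif2s3x. The main transcripts of the 3 genes measure 2542, 3405 and 3647 nt, in the order beta, alpha, gamma. Eif2s3y, the Y-linked gamma copy outside the set, had 51.5 and 48.8 CPM, close to the level of Eif2s3x, and how reads were split between these similar copies was not tested.

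Among the 5 subunits of eIF2B, the exchange factor that recharges eIF2 with GTP, the catalytic subunit Eif2b5 was the highest at 163 and 138 CPM. The other subunits were Eif2b1 (65.7 ± 7.71 CPM), Eif2b2 (82.2 ± 2.20 CPM), Eif2b3 (47.5 ± 15.4 CPM) and Eif2b4 (75.6 ± 5.69 CPM). The main transcript of Eif2b5 has 2554 nt and those of the others have 1555 to 2025 nt. The spread of Eif2b3 over the libraries, 36.7 and 58.4 CPM, took the ratio of Eif2b5 to Eif2b3 from 4.45 in replicate 1 to 2.36 in replicate 2.

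Of the 4 kinases of eIF2, only Eif2ak1 reached 10 CPM. Eif2ak1, the haem-regulated kinase, had 54 and 45 reads (47.1 and 47.8 CPM). Eif2ak3, the kinase of the endoplasmic reticulum stress response, had 13 and 4 reads, and Eif2ak4, the amino acid sensor, had 6 and 3. Eif2ak2, the kinase that responds to double-stranded RNA, had 1 read in replicate 1 and 0 in replicate 2. Eif2ak1 thus held 73.0% (61.4 to 82.6) and 86.5% (74.2 to 94.4) of the reads of the 4 kinases. The main Eif2ak1 transcript has 4325 nt, and those of Eif2ak3 and Eif2ak4 have 4513 and 5212 nt.

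Without the copy Eif3j2, 13 genes encode the subunits of eIF3, the scaffold on the small ribosomal subunit, and 11 of these lay between 50 and 200 CPM. Eif3b, a core subunit, was the highest at 303 and 265 CPM. Eif3c, another core subunit, was the lowest at 47.1 and 39.3 CPM, and the ratio of their means was 6.58. Eif3f (182 ± 1.25 CPM), Eif3l (164 ± 9.14 CPM), Eif3h (152 ± 22.3 CPM), Eif3e (130 ± 0.383 CPM), Eif3j1 (100 ± 13.1 CPM) and Eif3g (100 ± 5.14 CPM) followed Eif3b. The remaining subunits Eif3m (97.5 ± 17.7 CPM), Eif3i (89.0 ± 8.73 CPM), Eif3d (77.0 ± 8.34 CPM), Eif3a (74.0 ± 38.6 CPM) and Eif3k (61.3 ± 34.9 CPM) had means under 100 CPM. Eif3a and Eif3k had the widest spread of the 13. Main transcripts of the 13 run from 774 nt (Eif3k) to 5413 nt (Eif3j1), with 2945 nt for Eif3b and 3383 nt for Eif3c. Eif3j2 had 2 reads in each library, and since its coding sequence matched that of Eif3j1 at 100% of 783 aligned nt, the origin of those reads is uncertain.

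Eif3m, a subunit of the outer ring of eIF3, carried an alternative exon. The exon is the ninth of the 11 exons of Eif3m-201 (GRCm38, chr2:105001271-105001414, minus strand), lies in coding sequence and has 144 nt, a multiple of 3. It is shown because a read without it keeps the frame. Capitals mark the exon and lower case the neighbouring exons.

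Eif3m exon: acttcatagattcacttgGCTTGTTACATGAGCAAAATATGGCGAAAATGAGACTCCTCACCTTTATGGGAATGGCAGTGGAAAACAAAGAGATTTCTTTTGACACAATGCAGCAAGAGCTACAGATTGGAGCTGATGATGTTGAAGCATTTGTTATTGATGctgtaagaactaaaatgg

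The exon was present in 113 of 125 spanning reads (90.4%) in replicate 1 and in 73 of 78 (93.6%) in replicate 2. No transcript of Eif3m in GENCODE M21 had the 10-exon chain that leaves it out, which was read 12 times in replicate 1 and 5 times in replicate 2.

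The cap-binding and helicase group eIF4 held the largest part of the reads, 2032 and 1988 CPM over 11 genes. Its highest member was Eif4g2, a shortened relative of the scaffold eIF4G that lacks the part that binds eIF4E, at 718 and 772 CPM. Eif4g1, the main scaffold, had 205 and 117 CPM, and Eif4g3 had 66.3 and 55.2 CPM. The most read models of the 3 are listed at 7995, 5454 and 4025 nt, in that order, the last an incomplete one. Listed lengths of annotated and unannotated models are not alike in kind. The main Eif4g2 chain without a 114-nt exon is listed at 5058 nt. Eif4g2 held 72.6% (69.9 to 75.2) of the reads of the 3 genes in replicate 1 and 81.8% (79.1 to 84.3) in replicate 2, and these intervals do not overlap. Counted on annotated transcripts alone, Eif4g2 held 98.4%, because few reads of Eif4g1 and Eif4g3 matched an annotated transcript in full.

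The helicase Eif4a2 had 237 and 271 CPM and its near relative Eif4a1 had 84.7 and 106 CPM. Eif4a2 was 2.80 and 2.55 times Eif4a1, or 73.7% (68.9 to 78.1) and 71.8% (66.8 to 76.5) of the reads of the pair. Eif4a2 was ahead of Eif4a1 in both libraries, with shares that differed by less than their intervals. The coding sequences of the pair are 78.5% identical over 1215 aligned nt, and the main transcripts have 2208 and 1774 nt. A pseudogene of the helicase outside the set, Eif4a-ps4, had 108 and 83 reads. Eif4a3, the helicase of the exon junction complex, had 107 and 121 CPM.

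The cap-binding protein Eif4e had 76.0 and 93.4 CPM. Its relatives Eif4e2, which binds the cap without recruiting eIF4G, and Eif4e3 had 68.1 and 58.4 CPM and 31.4 and 39.3 CPM. Main transcripts of Eif4e, Eif4e2 and Eif4e3 have 1421, 1119 and 2515 nt. Eif4e held 43.3% (36.3 to 50.4) and 48.9% (41.4 to 56.4) of the reads of the 3, and its interval overlapped that of Eif4e2 in replicate 1 only. The helicase cofactors Eif4h (325 and 282 CPM) and Eif4b (113 and 72.2 CPM) were at 304 ± 29.9 and 92.4 ± 28.6 CPM, with main transcripts of 2367 and 3854 nt.

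Eif4ebp1, the repressor that holds eIF4E until growth signals phosphorylate it, had 155 and 172 reads (135 and 183 CPM). It had 1.78 and 1.95 times the reads of Eif4e, with main transcripts of 1997 and 1421 nt. Eif4ebp2 had 43 and 26 reads, and Eif4ebp3 had 0 reads in both libraries. The annotated transcript Eif4ebp2-201 has 5784 nt. Of the Eif4ebp2 reads, 32 and 22 were unspliced and lay within the last exon, so 7.36 CPM remained of its mean of 32.6 CPM once the class of genomic reads was left out. Eif4enif1, the transporter that takes eIF4E to the nucleus, had 34.9 and 27.6 CPM.

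**Figure D2:**
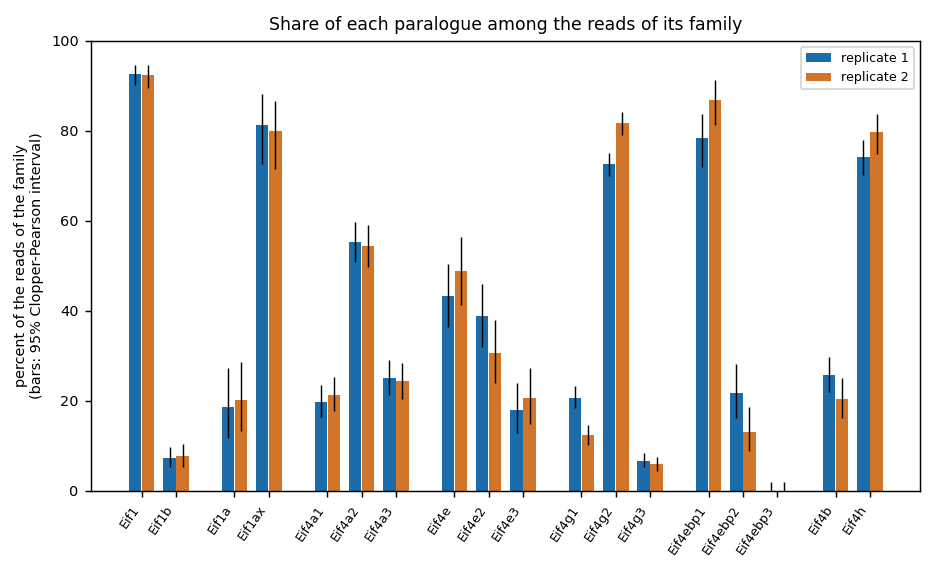
Share of each paralogue among the reads of its family, in percent, for 7 families, with replicate 1 in blue, replicate 2 in orange and 95% Clopper-Pearson intervals. Eif1, Eif1ax, Eif4a2, Eif4e, Eif4g2, Eif4ebp1 and Eif4h were the most read in both libraries, and the shares of Eif4g1 and Eif4g2 are the ones whose intervals do not overlap between replicates.

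Eif5a, named as an initiation factor but known for helping elongation through difficult peptide bonds, had the highest level of all at 832 and 694 CPM. Its copy Eif5a2 had 2 reads in each library, so Eif5a held 99.8% and 99.7% of their reads. The main transcript of Eif5a has 1343 nt and that of Eif5a2 has 5027 nt. Eif5, the activator of the eIF2 GTPase, had 200 and 265 CPM and Eif5b, the GTPase of subunit joining, had 26.2 and 28.7 CPM. The main transcript of Eif5b has 7797 nt and that of Eif5 has 4050 nt. Eif6, which keeps the large subunit from joining early, had 69.0 and 77.5 CPM. Eif2a, which can deliver tRNA without eIF2, had 41.0 and 59.5 CPM, Eif2d had 45.1 ± 5.29 CPM, and Eif1ad, named for its similarity to eIF1A, had 16.7 ± 1.08 CPM.

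Reads were long enough to give the exon structure of most transcripts. In the 46 genes with at least 20 reads per library, the most read model held a median of 88.4% of reads and was an annotated protein-coding transcript in 42. It held over 80% of reads in 28 genes and under 50% in 4, and 10 genes had a second model at 10% or more. Beside Eif4g2, Eif4h, Eif4a2, Eif4g3, Eif4enif1 and Eif4ebp2, these were Eif4e2 (Eif4e2-206 at 23.1% and 32.7%), Eif2b4 (Eif2b4-202 at 18.3% and 17.3%), Eif3i and Eif5b. In Eif3i a model of 10 exons classed as incomplete held 12.8% and 25.6%. It is listed at 1166 nt, beside 1123 nt for Eif3i-201 with its 11 exons, so here the class does not stand for a shorter model. In Eif5b an incomplete model of 5 exons held 23.3% and 11.1%. A read counted against an internal exon only where 1 intron covered the whole exon. A shifted splice site alone therefore does not make an exon variable here, and such sites are given separately below. Of the 470 internal exons measured in 45 genes, 448 were in over 95% of spanning reads, 18 were in under 5%, and 4 lay between. Those 4 variable exons, in Eif3m, Eif4enif1, Eif4g2 and Eif4h, are 0.851% of the exons measured, beside 4.55% of the 37629 internal exons measured over all genes. All 4 are coding and multiples of 3 in length. None differed between the libraries by Fisher's exact test, each with an adjusted p of 1 (unadjusted 0.116 to 0.604), and over all genes 0.175% of variable exons were called (adjusted p under 0.05 and at least 10 points). The other 3 exons and their values follow.

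Eif4g2 exon: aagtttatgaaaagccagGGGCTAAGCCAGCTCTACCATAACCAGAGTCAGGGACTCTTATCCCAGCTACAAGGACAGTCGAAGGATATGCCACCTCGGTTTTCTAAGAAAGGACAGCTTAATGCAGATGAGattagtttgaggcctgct

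Eif4h exon: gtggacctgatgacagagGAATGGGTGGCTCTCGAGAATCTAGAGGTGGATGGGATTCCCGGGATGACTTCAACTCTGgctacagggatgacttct

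Eif4enif1 exon: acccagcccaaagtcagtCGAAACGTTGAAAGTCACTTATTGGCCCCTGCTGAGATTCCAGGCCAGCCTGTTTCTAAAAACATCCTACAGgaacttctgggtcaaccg

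The 114-nt exon of Eif4g2 (chr7:111076280-111076393, minus strand) is exon 14 of the 22 in Eif4g2-213. It was included in 608 of 802 reads (75.8%, 72.7 to 78.7) in replicate 1 and in 557 of 711 (78.3%, 75.1 to 81.3) in replicate 2. The annotated transcript with the exon, Eif4g2-213, held 66.8% and 69.9% of the reads of the gene. The main chain without it, of 21 exons, held 21% and 19.7%. That chain was classed as incomplete, yet its reads began in the same first exon as Eif4g2-213. The annotated transcript that skips the exon, Eif4g2-206, has a further intron near its start that these reads did not have. With incomplete and genomic reads left out, this chain is lost and inclusion of the exon was 98.7% in place of 77.1% (means of both libraries).

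The 60-nt exon of Eif4h (chr5:134624441-134624500, minus strand) is exon 5 of the 7 in Eif4h-205. It was included in 149 of 344 reads (43.3%, 38.0 to 48.7) and in 99 of 249 (39.8%, 33.6 to 46.1). Eif4h-201, without the exon, held 50.5% and 55.3% of the reads of the gene and Eif4h-205 held 38.2% and 36.8%. Both forms were thus common in both libraries. The 72-nt exon of Eif4enif1 (chr11:3233988-3234059, plus strand) was included in 13 of 31 reads (41.9%, 24.5 to 60.9) and in 16 of 25 (64.0%, 42.5 to 82.0), and at this depth the intervals overlap.

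Splice sites that share their partner were also counted, a measure chosen after the first values had been seen. Eif4g3 used a pair of acceptors 57 nt apart in coding sequence (chr4:138180490-138180546, plus strand). The downstream acceptor, which drops those bases, was used in 33 of 67 reads (49.3%) and in 17 of 40 (42.5%). Eif4a2 and Eif4g1 each had acceptors 3 nt apart. The extra codon was kept in 83 of 258 Eif4a2 reads (32.2%, 26.5 to 38.2) and 60 of 240 (25%, 19.7 to 31.0), at chr16:23108585-23108587. In Eif4g1 it was kept in 64 of 174 reads (36.8%, 29.6 to 44.4) and 28 of 78 (35.9%, 25.3 to 47.6), at chr16:20681734-20681736. Acceptors 3 nt apart were found in 3 of the 46 genes (6.52%) and in 250 of all 4697 genes with 20 reads in each library (5.32%). The third gene was Eif5b, where the less used acceptor had 0 of 21 reads in replicate 1 and 3 of 21 in replicate 2. The bases are shown because each choice of acceptor adds or drops a multiple of 3 coding bases. Capitals mark the bases kept only when the upstream acceptor is used.

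Eif4a2 extra 3: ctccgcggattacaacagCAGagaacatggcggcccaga

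Eif4g1 extra 3: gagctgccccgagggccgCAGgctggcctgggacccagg

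Eif4g3 extra 57: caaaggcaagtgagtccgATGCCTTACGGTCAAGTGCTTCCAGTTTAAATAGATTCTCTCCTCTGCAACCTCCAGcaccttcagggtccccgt

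Eif4a2 also used the acceptor of a further exon (chr16:23112351-23112457, plus strand) that the annotation places in Eif4a2-204, a transcript of the nonsense-mediated decay class. That acceptor was used in 24 of 262 reads (9.16%, 5.96 to 13.3) in replicate 1 and in 20 of 245 (8.16%, 5.06 to 12.3) in replicate 2. These counts are of the acceptor alone, wherever the exon ended in the read. The exon with both annotated ends was not among the variable exons. In the frame of Eif4a2-204, 7 coding nt of this exon are followed by a stop codon, printed in capitals.

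Eif4a2 early stop: tgaaaactatattcacaggagtcgaTAG

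**Figure D3:**
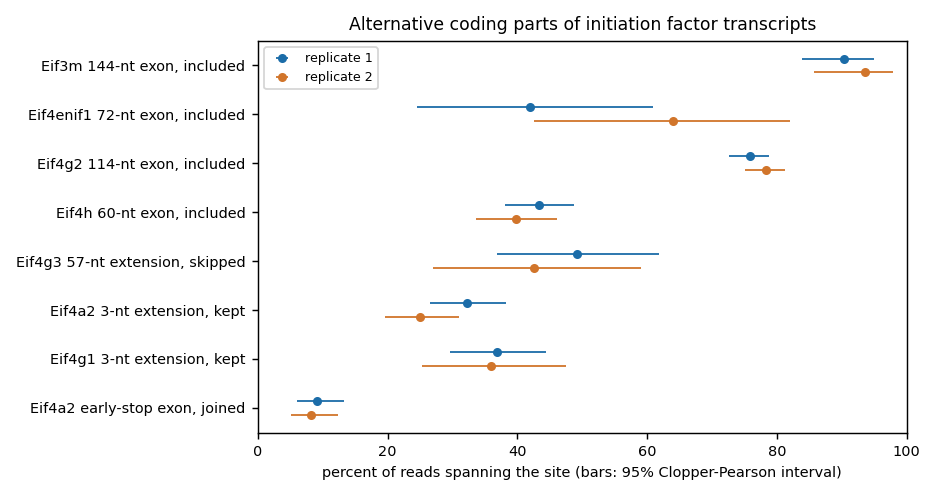
Use of 8 alternative coding parts in percent of the reads that span the site, with replicate 1 in blue, replicate 2 in orange and 95% Clopper-Pearson intervals. For Eif4g3 the value is the share that drops the 57 nt. For the early-stop exon of Eif4a2 it is the use of the acceptor of that exon. The intervals of both replicates overlap for all 8, and the widest, those of Eif4enif1, rest on 31 and 25 reads.

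Reads of most of these genes began in the same first exon. In 37 of the 46, the most used first exon held 80% or more of the spliced reads in both libraries. Eif4e2 began at either of 2 first exons, the upstream one in 28 of 77 reads (36.4%, 25.7 to 48.1) and in 33 of 55 (60.0%, 45.9 to 73.0). Eif4enif1 had 2 donors for its first exon, 195 nt apart, and the upstream one was used in 13 of 35 reads (37.1%, 21.5 to 55.1) and 14 of 26 (53.8%, 33.4 to 73.4). In both genes the intervals of the libraries overlap. The donor of the first exon of Eif3i-202 came first in 17 of 109 Eif3i reads (15.6%, 9.36 to 23.8) and 25 of 78 (32.1%, 21.9 to 43.6). Those reads had a median start at chr4:129600599 (minus strand), upstream of the first donor of Eif3i-201 at 129600594. That of Eif2b4-202 came first in 16 of 82 Eif2b4 reads (19.5%, 11.6 to 29.7) and 14 of 75 (18.7%, 10.6 to 29.3).

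Many reads of Eif4g3 and Eif4g1 began downstream of the first annotated exons. In Eif4g3, 34 of 72 spliced reads (47.2%) in replicate 1 and 28 of 48 (58.3%) in replicate 2 began in exon 13 of the 36 of Eif4g3-205, an exon of 825 nt. Counted at or beyond that exon, the shares were 68.1% (56.0 to 78.6) and 89.6% (77.3 to 96.5). In Eif4g1, 39.8% (33.5 to 46.5) and 43.8% (34.1 to 53.8) of spliced reads began at or beyond exon 10 of the 33 of Eif4g1-203, an exon of 813 nt. Those that began in exon 10 itself were 28 of 231 (12.1%) and 14 of 105 (13.3%). The first donor of Eif4g1-201 was used by 29.0% and 20.0%. The starts of Eif4g1 reads were thus spread over several exons, while exon 13 was the most used start of Eif4g3. Where the RNAs themselves start was not measured.

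Annotated transcripts took 84.0% of initiation factor reads in replicate 1 and 86.0% in replicate 2, beside 72.1% and 76.4% over all annotated genes. Incomplete matches, which follow an annotated chain of introns over part of its length, took 9.72% and 8.64%, beside 8.82% and 7.63%. New combinations of known splice sites took 2.92% and 2.16%, beside 12.3% and 6.0%, and models with a new splice site took 2.17% and 1.85%, beside 4.82% and 8.15%. Genomic reads took 1.21% and 1.34%. By gene, 23 of 46 had 90% or more of their reads on annotated transcripts, and the median was 89.6%, beside 85.3% over the 4697 genes. The 4 genes under 50% were Eif4ebp2 at 20.3%, Eif4enif1 at 15.2%, Eif4g1 at 4.06% and Eif4g3 at 2.34%.

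**Figure D4:**
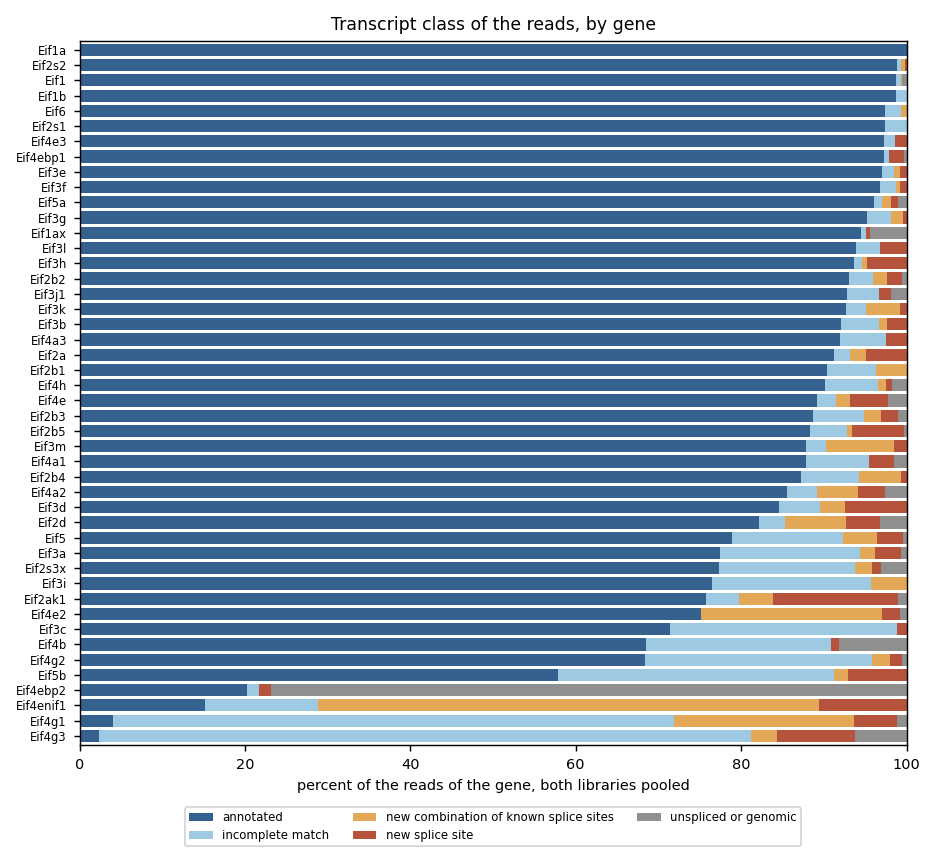
Class of the reads of the 46 genes with at least 20 reads per library, in percent of the reads of each gene with both libraries pooled, ordered by the annotated share. Eif4ebp2 stands out by genomic reads, Eif4enif1 by new combinations of known splice sites, and Eif4g1 and Eif4g3 by incomplete matches.

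Both libraries shared 52 unannotated spliced models in 23 of the genes, and 5 of these had 5 or more reads in each. Besides the Eif3m model these were 2 of Eif4g1 (24 and 9 reads, and 20 and 6 reads) and 2 of Eif4enif1 (8 and 7 reads, and 6 and 5 reads). Each of the 4 had exactly 1 intron that its closest annotated transcript lacks. For Eif4g1 the closest transcripts were Eif4g1-203 and Eif4g1-205, and for Eif4enif1 they were Eif4enif1-203 and Eif4enif1-201.

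Between the libraries, 2 of the 47 tested initiation factor genes were called by the exact two-sided conditional binomial test (adjusted p under 0.05 over all 7654 genes tested and at least 2-fold). Eif3a, the largest eIF3 subunit, had 116 reads in replicate 1 and 44 in replicate 2 (log2 ratio 1.12, counting SE 0.26, adjusted p = 1.44e-04). Eif3k, the smallest eIF3 subunit, had 42 and 81 reads (log2 ratio -1.23, counting SE 0.27, adjusted p = 9.82e-05). Over all genes tested, 2.89% were called higher in replicate 1 and 1.78% higher in replicate 2, so 1 of 47 in each direction is near that background. At any fold, 7 of the 47 (14.9%) had an adjusted p under 0.05, beside 11.3% of all genes. The other 5 were Eif4g1 (235 and 110 reads), Eif4b (129 and 68), Eif5a (953 and 654), Eif5 (229 and 250) and Eif2s2 (353 and 408). The median log2 ratio was -0.02 over the initiation factor genes and 0.01 over all genes, and the median of its size was 0.24 beside 0.35.

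Transcript length moved with the difference between the libraries over all genes. Of genes whose main model was under 1500 nt, 32.2% were higher in replicate 1, and of those at 4000 nt or more, 69.9% were. Eif3k, at 774 nt, and Eif3a, at 5125 nt, lie at the short and the long side of this range. With the null share fitted within each bin of length, neither passed the 2-fold limit by the exact binomial test. The log2 ratio was 0.73 for Eif3a (adjusted p = 0.0475) and -0.93 for Eif3k (adjusted p = 0.00941). By the same test and fit, Eif4g1 (adjusted p = 0.0934) and Eif4b (adjusted p = 0.193) were no longer under 0.05. Eif5a (adjusted p = 1.22e-07), Eif5 (adjusted p = 3.18e-04) and Eif2s2 (adjusted p = 1.86e-04) still were. Besides Eif3a, 8 initiation factor genes had a main model of 4000 nt or more, and 2 of these, Eif4g1 and Eif4g3, were higher in replicate 1. Spearman's rho of the log2 ratio with length was 0.13 across the 47 genes and 0.32 across all genes, which are not independent replicates.

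**Figure D5:**
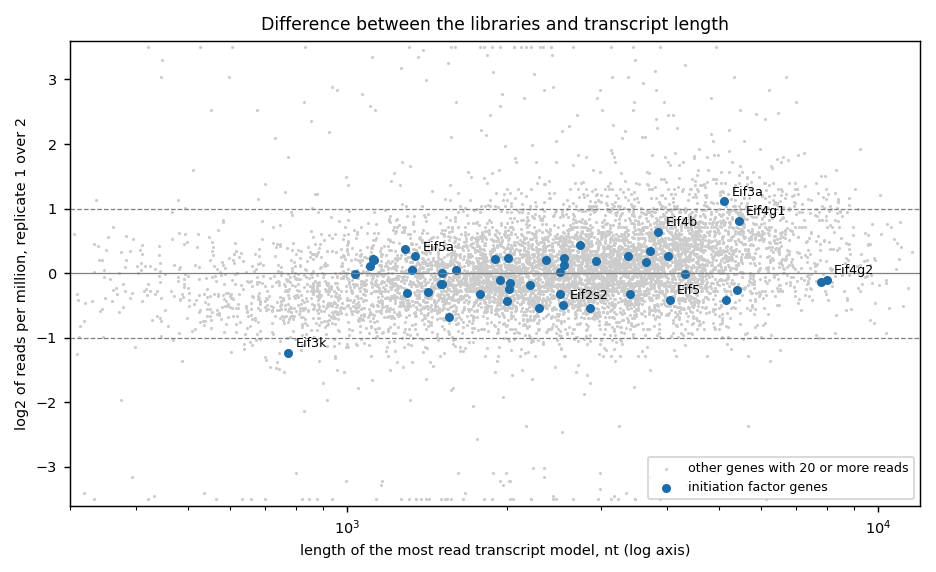
The log2 ratio of CPM, replicate 1 over replicate 2, against the length of the most read transcript model (log axis) for initiation factor genes (blue) and all other genes with at least 20 reads in all (grey). Dashed lines mark 2-fold, values of other genes beyond 3.5 are drawn at that limit (65 genes), and 49 genes lie outside the length range drawn. Eif3a and Eif3k are the initiation factor genes beyond the dashed lines.

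Of the 144 transcript models of these genes tested for their share, 1 was called by Fisher's exact test (adjusted p under 0.05 and at least 10 points), beside 1.1% of all 14415 models. Eif4b-201, the full transcript of the helicase cofactor, held 99 of 129 reads (76.7%, 68.5 to 83.7) in replicate 1 and 36 of 68 (52.9%, 40.4 to 65.2) in replicate 2, with an adjusted p of 0.0487. The call was not made with a minimum of 10 reads per library, nor with incomplete and genomic reads left out. Of the spliced Eif4b reads, 100 of 122 (82.0%) and 38 of 59 (64.4%) began in its first exon. Reads of Eif4b-201 begin in that exon, so these are nearly the same reads and not a separate observation. Unspliced reads made up 5.43% and 13.2%. In Eif4h, 14 unspliced reads of replicate 1 were classed as incomplete and 11 of replicate 2 as genomic, all within the last exon. These 2 models passed the adjusted p of Fisher's exact test (0.0278 and 0.00442) but not the 10-point limit. Whatever their class, unspliced reads made up 3.76% and 4.14% of Eif4h reads. The difference thus lies in the class label, not in the share of such reads.

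Of 43 further genes of translation control on fixed lists, 42 had reads and 36 were tested. Sesn2 had 0 reads in both libraries. Of the 36, 3 (8.33%) were called higher in replicate 1, beside 2.89% of all genes, and 1 (2.78%) was called higher in replicate 2, beside 1.78%. These calls used 1 null share for all genes, without the fit by transcript length, and how far they depend on length is not shown. Eef2, the elongation factor that moves the ribosome along, had 673 and 267 reads (log2 ratio 1.05, adjusted p = 1.33e-23 by the exact test). Its kinase Eef2k had 59 and 20 reads. Ppp1r15a and Ppp1r15b, the phosphatase subunits that reverse the phosphorylation of eIF2, went in opposite directions, with 21 and 37 reads (adjusted p = 0.047, exact test) and with 35 and 7 reads (adjusted p = 0.00233, exact test). None of the 10 tested genes of poly(A) binding and cap control, the 5 of the growth signal, the 4 of start-site choice or the 2 of mitochondrial initiation was called. On all lists, 2 genes passed the adjusted p without the fold. Eef1a1, the elongation factor that brings aminoacyl-tRNA, had 383 and 204 reads (log2 ratio 0.63, adjusted p = 1.02e-05, exact test). Paip2, which restrains the poly(A)-binding protein, had 219 and 271 reads (log2 ratio -0.59, adjusted p = 1.37e-04, exact test).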

How the data were processed

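The authors deposited, for each library, raw read counts per transcript model, listing only models with 1 or more reads, and a matching annotation of exons. Per the labels' protocols and the file headers, reads were aligned to mm10 and models built against GENCODE M21 with TALON attributes. Aligner and tool versions: not given in the sources used here. Replicate 1 cites pipeline document 3.1 and replicate 2 cites 3.0, so document and sample cannot be told apart. The samples have separate biosample records and replicate numbers but cite the same donor record, so the labels do not show whether they came from separate animals.

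Counts were summed per gene and per model; CPM is per 1000000 mouse reads, spike-ins left out. With 1 library each, no residual spread can be estimated, so p-values cover counting error only: exact conditional binomial test per gene (20 or more reads over both libraries), Fisher's exact test per model (20 reads in each library, 5 over both) and per exon included in 5% to 95% of reads, each with Benjamini-Hochberg adjustment over all genes, models or exons. Shares have 95% Clopper-Pearson intervals. Sequences and coding identities come from GENCODE M21 transcripts (GRCm38). The members and lists were chosen with earlier results of these data known. The rule for naming covered members at 10 CPM or more, second models at 10%, every variable exon, every called member, and unannotated models with 5 reads in each library; splice sites, first exons and the early-stop exon were added after values were seen. Alternatives changed the scaling (edgeR 4.0.16, DESeq2 1.42.0 in R 4.3.3), the read minimum, the classes counted, the length null and the fold limit. Tests were run in Python 3.11.15 with scipy 1.17.1, and tested on simulated data.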

Additional observations from a re-analysis of the deposited data

How the results depend on the processing

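The 2 called genes, Eif3a and Eif3k, were also called with TMM scaling, DESeq2 size factors, a minimum of 5 reads and none, and without genomic reads. On annotated transcripts Eif4b was called as well (3 genes), with a null fitted per bin of transcript length 0 were called, and with no fold limit 7 passed. The transcript share call was 0 with a minimum of 10 reads and 0 without incomplete and genomic reads, and no exon was called under any alternative. The variable exons did change: a minimum of 10 reads added a 79-nt exon of Eif4e2, and leaving out incomplete and genomic reads removed that of Eif4g2 (98.7% in place of 77.1%) and added 2 of Eif3i. The summed level of 6577 CPM was 5591 CPM on annotated transcripts, 6493 CPM without genomic reads and 9543 CPM with a library size that leaves out mitochondrial genes and the 10 highest genes. Without 1 replicate it was 6555 to 6599 CPM. On annotated transcripts the mean share among the 3 genes of its family was 53.6% in place of 54.8% for Eif4a2, 98.4% in place of 77.2% for Eif4g2 and 95.7% in place of 82.6% for Eif4ebp1, the last at 95.3% without genomic reads. The annotated share of 85.0% was 81.3% as a mean over genes and 83.5% without Eif5a, and the incomplete share was 10.3% without Eif5a. On annotated transcripts the levels of Eif4g1 (161 to 6.58 CPM), Eif4g3 (60.8 to 1.40 CPM), Eif4enif1 (31.3 to 4.84 CPM), Eif4ebp2 (32.6 to 6.49 CPM), Eif5b (27.4 to 15.8 CPM) and, under 10 CPM, Eif2ak2 and Eif2ak3 moved by over 1.5-fold. Where the construction of an alternative (fewer reads or genes) does not show it, the cause was not tested. No paired analysis was possible because both libraries belong to 1 group. Genes under 20 reads over both libraries and exons under 20 spanning reads in a library were left out of the main tests by the chosen minimum.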
